A study of Mus musculus with 92 samples.

Results

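Crypts of the mouse small intestine were compared between mice in which tamoxifen deleted both floxed copies of Eif4g2 and mice in which it deleted 1 copy. The homozygous genotype was Eif4g2(flox/flox), Rosa26(CreER) and the heterozygous genotype Eif4g2(flox/+), Rosa26(CreER), both given tamoxifen and both sampled on day 9, counted from the first dose. The 9 libraries, 4 homozygous (replicates 1, 3, 4 and 5) and 5 heterozygous (replicates 1 to 5), were chosen by these labels from the 92 of the series, and each came from a mouse of its own. The controls were therefore not wild type: they carried CreER, had received tamoxifen and had lost 1 copy of the gene. The Rosa26 promoter drives CreER in all tissues, so deletion was not limited to the epithelium, and the labels of these samples give no dose, age or sex. Villi of the same experiment (5 homozygous and 5 heterozygous libraries, 9 of the 10 from the mice of the crypts) and crypts of Vil1-CreER mice at month 3 (3 Eif4g2(flox/flox),Vil1(CreER) and 4 Eif4g2(flox/+),Vil1(CreER) libraries), in which CreER is made by epithelial cells alone, served for comparison. The Vil1-CreER mice had received 4 daily injections of tamoxifen, each of 100 mg/kg.

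Eif4g2 encodes a relative of the scaffold protein eIF4G that lacks the part binding the cap-binding protein eIF4E, and it supports initiation on particular messages. Crypts hold the stem cells that renew the intestinal lining, the Paneth cells that border them and secrete antimicrobial peptides, dividing progenitors, and young goblet, enteroendocrine, tuft and absorptive cells. Absorptive cells complete their maturation after they leave the crypt for the villus. RNA was measured by poly(A)-selected RNA-seq and deposited as read counts per gene.

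The 9 libraries held from 22458821 to 37611126 counts. Levels are given as CPM, counts per 1000000 counts after TMM scaling over these 9 libraries, and a gene was called where edgeR's quasi-likelihood test gave an adjusted p under 0.05 over all 15846 tested genes. Of these, 3198 were called, which is 20.2%: 1367 were higher (8.63%) and 1831 lower (11.6%) in homozygous crypts. Every count of called members below is to be read against these shares, and every median log2 fold change against that of all tested genes, 0.04. The CPM of the groups did not overlap for 3267 of the 15846 tested genes and for 2673 of the 3198 called genes. Separation of the groups was thus common among called genes and is not particular to those named below. Without homozygous replicate 5 the count of calls was 4732 of 16115 tested genes, and the balance turned, with 2513 higher and 2219 lower. The count was 1937, 2010, 2086 and 2027 without heterozygous replicates 5, 2 and 3 and homozygous replicate 4. Without any 1 library other than homozygous replicate 5, 685 to 1079 genes were higher and 1241 to 1705 lower. Those fits tested 15618 to 16083 genes.

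Homozygous replicates 5 and 1 each stood apart from the other homozygous libraries, in different marker lists. Summed over the 18 macrophage, dendritic cell and granulocyte markers, homozygous replicates 1, 3, 4 and 5 had 848, 1479.9, 3086 and 109 CPM, and the heterozygous libraries 79.5 to 394 CPM. Replicate 5 was thus low in these markers, while the other 3 lay above every heterozygous library. The 21 brush border genes summed to 19105, 5629, 8058 and 6956 CPM in the homozygous libraries, where replicate 1 was far above the rest, and to 5476 to 10666 CPM in the heterozygous ones. Y-linked transcripts were present in all 5 heterozygous libraries and in homozygous replicate 1, and absent from homozygous replicates 3, 4 and 5, which had 180.3, 205 and 316 CPM of the X-inactivation RNA Xist. Sex and genotype therefore cannot be told apart in full.

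Eif4g2 (ENSMUSG00000005610, chromosome 7, 111067750 to 111083030, minus strand, GRCm38) checked the labels. Heterozygous crypts had 484, 477, 503, 466 and 473 CPM and homozygous crypts 98.8, 140.1, 119 and 131 CPM. All 4 homozygous libraries lay far below all 5 heterozygous ones (log2 fold change -1.98 ± 0.11 (SE), adjusted p 7.74e-05). The counts do not tell whether the remaining reads came from cells that kept the gene or from parts of the transcript outside the deleted exons.

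**Figure D1:**
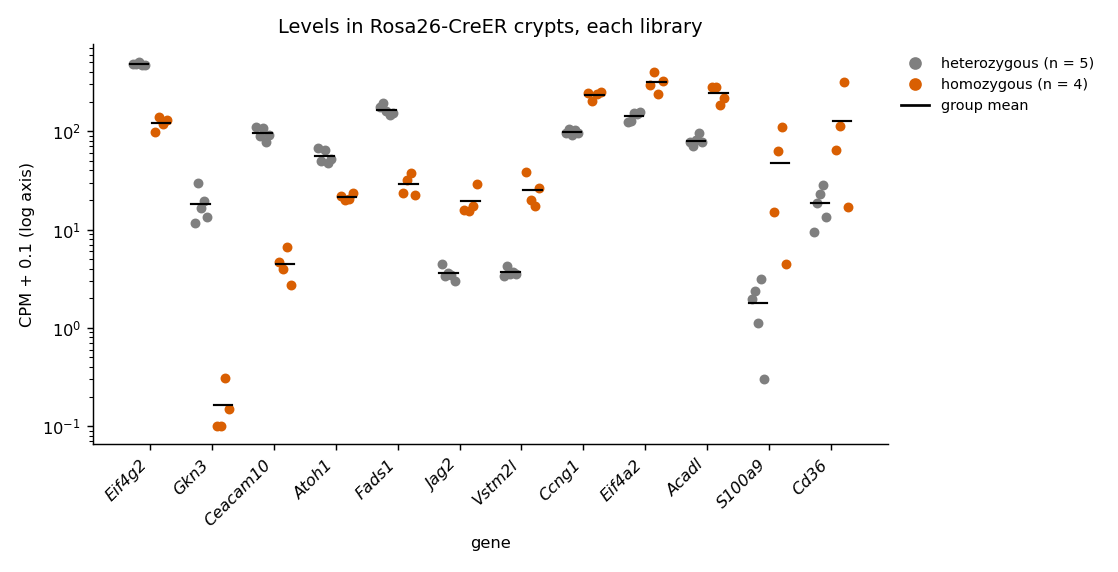
Level of 12 genes in each crypt library, in CPM on a log axis with 0.1 added so that values of 0 can be drawn. Grey points are the 5 heterozygous and orange points the 4 homozygous libraries, and horizontal bars are group means. For Eif4g2, Gkn3, Ceacam10, Atoh1, Fads1, Jag2, Vstm2l, Ccng1, Eif4a2, Acadl and S100a9 the groups do not overlap, and for Cd36 they do. Of all 3198 called genes 2673 have groups that do not overlap.

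The 10 largest falls were taken from called genes whose groups did not overlap, so the separation of their groups follows from the choice. They were in genes of very different roles. Gkn3, a gastrokine family gene, had 11.5, 29.7, 16.4, 19.2 and 13.3 CPM in heterozygous crypts and 0, 0, 0.211 and 0.0492 CPM in homozygous crypts. It was close to silent in every homozygous library (log2 fold change -7.85 ± 0.73 (SE), adjusted p 0.000362). Sfrp5, which encodes a secreted Wnt antagonist, had 14.2, 29.9, 17.2, 10.8 and 20.4 CPM against 0.0957, 0.0428, 0.211 and 0.862 CPM (log2 fold change -5.78 ± 0.74 (SE), adjusted p 0.00127). Of the homozygous libraries replicate 5 was highest. The gasdermins Gsdmc2 and Gsdmc4, members of a family of pore-forming proteins, fell by 5.84 and 4.84 on the log2 scale, from 16.05 ± 8.94 and 39.5 ± 22.3 CPM (SD, n = 5) to 0.263 ± 0.182 and 1.33 ± 0.762 CPM (SD, n = 4). As near copies of each other, these 2 may share reads. Pbld1 (log2 fold change -4.38), the aldo-keto reductase gene Akr1c14 (-4.13), the carboxylesterase gene Ces1d (-4.04), the neutrophil-type surface protein gene Cd177 (-4.01) and Ceacam10 (-4.43) completed the 10 with Olfm4. The call of Ces1d was lost with Y-linked transcripts as a covariate.

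The 10 largest rises, chosen by the same rule and so also without overlap, mixed epithelial and immune genes. S100a9 and S100a8, the paired calcium-binding proteins of neutrophils, led them. S100a9 had 1.89, 2.27, 1.02, 3.04 and 0.199 CPM in heterozygous and 15.1, 62.4, 109 and 4.31 CPM in homozygous crypts (log2 fold change 4.85 ± 0.99 (SE), adjusted p 0.00979), so replicate 5 lay just above the highest heterozygous library and replicate 4 far above. Both calls were lost with the covariate for Y-linked transcripts, and the part of immune cells in the rise was not tested. Vstm2l behaved differently: its level was 3.27, 4.11, 3.39, 3.64 and 3.41 CPM against 37.98, 19.7, 17.3 and 26.5 CPM, high in all 4 homozygous libraries, replicate 5 included (log2 fold change 2.83 ± 0.23 (SE), adjusted p 0.000193). Gsta1, a glutathione S-transferase gene, rose from 12.2 ± 4.33 to 86.1 ± 47.1 CPM (log2 fold change 2.82). Wwc2, a relative of the Hippo regulator WWC1, rose by 2.71, the alarmin gene Il33 by 2.64, the ETS factor gene Etv4 by 2.54 and the p53 target Phlda3 by 2.50 on the log2 scale. S100a6 and mt-Nd4l, a gene of the mitochondrial genome, were the other two.

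Genes were also placed on the axis from crypt to villus with libraries outside the main comparison, the 4 heterozygous crypt and 4 heterozygous villus libraries of Vil1-CreER mice. There, 7043 of 15757 genes (44.7%) were crypt-high or villus-high at an adjusted p under 0.05 and a log2 difference beyond 1. Of 3691 crypt-high genes tested in Rosa26-CreER crypts, 774 were lower (21.0%) and 182 higher (4.93%) in homozygous crypts. Of 2832 villus-high genes, 198 were lower (6.99%) and 297 higher (10.5%). The 8079 genes in neither class divided evenly, with 811 lower (10.0%) and 802 higher (9.93%). The median log2 fold change was -0.14 for crypt-high and 0.14 for villus-high genes. Genes that mark the crypt were thus called lower more often than higher, while villus genes did not rise to the same extent.

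**Figure D2:**
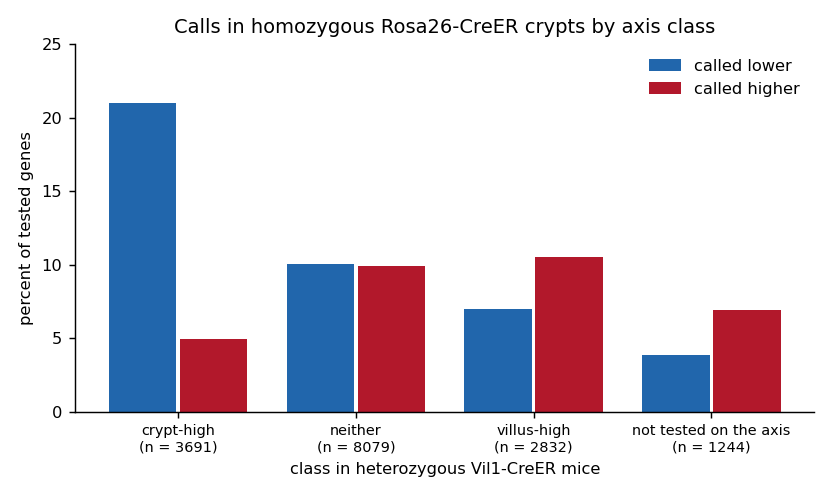
Percent of tested genes called lower (blue) or higher (red) in homozygous crypts, by class on the crypt-villus axis as measured in heterozygous Vil1-CreER mice. Of crypt-high genes, 21.0% were lower and 4.93% higher, and of villus-high genes 6.99% were lower and 10.5% higher.

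Most marker genes of Paneth, goblet, enteroendocrine and tuft cells were called lower, and none was called higher. Among 12 Paneth cell genes other than defensins, all 12 fell, with a median log2 fold change of -1.93, and among 21 alpha-defensins 15 fell and none rose (median -1.84). Mptx2, a pentraxin made by Paneth cells, had 674, 673, 701, 685 and 564 CPM in heterozygous and 20.7, 59.6, 73.5 and 99.2 CPM in homozygous crypts. The groups were widely separated, with homozygous replicate 1 lowest (log2 fold change -3.38 ± 0.40 (SE), adjusted p 0.0009). Ang4, an antimicrobial ribonuclease gene, had 871, 1194, 1095, 986 and 799 CPM against 127, 208, 247 and 346 CPM (log2 fold change -2.09 ± 0.27 (SE), adjusted p 0.00136). Defa17, Defa26 and Defa23 fell, with log2 fold changes of -3.46, -2.73 and -2.57, as did the matrix protease gene Mmp7, which activates defensins (-1.14). Defensin genes are near-identical copies, so reads may be split among them and single members are uncertain. The 12 Paneth genes together had 2439.9, 3599.8, 6147 and 10024 CPM in homozygous replicates 1, 3, 4 and 5, and 16548 to 23158 CPM in the heterozygous libraries. Here and in all results on bulk tissue, fewer cells of a type and less RNA per cell cannot be told apart.

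Of 19 goblet cell genes 13 fell and none rose (median log2 fold change -1.11). Atoh1, the transcription factor that commits cells to the secretory lineages, had 66.9, 49.9, 63.9, 47.9 and 52.5 CPM in heterozygous and 21.9, 20.04, 20.2 and 23.2 CPM in homozygous crypts (log2 fold change -1.40 ± 0.12 (SE), adjusted p 0.00025). The 4 homozygous values lay within a narrow band, all below the heterozygous ones. Spink4 (log2 fold change -1.53), Galnt12, an enzyme that starts mucin glycans (-1.45), and the trefoil peptide gene Tff3 (-1.15) were also lower in every library. Muc2, the main mucin, had 1152, 334, 287, 215 and 271 CPM against 397, 105, 174 and 163 CPM and was not called (log2 fold change -1.11 ± 0.58 (SE), adjusted p 0.201). Heterozygous replicate 1 stood far above the rest, and of the homozygous libraries replicate 1 lay above the other 4 heterozygous ones and replicates 3, 4 and 5 below all of them. With the replicate block Muc2 was called.

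Of 19 enteroendocrine regulators and granins 14 fell (median -1.66), a count of 9 without homozygous replicate 4, and all 11 tested hormone genes fell (median -2.12). Somatostatin, Sst, had 59.3, 43.8, 52.3, 35.5 and 42.8 CPM against 5.31, 3.43, 7.64 and 12.4 CPM (log2 fold change -2.69 ± 0.35 (SE), adjusted p 0.0014). Tachykinin, Tac1, had 20.9, 16.99, 24.5, 17.7 and 20.6 CPM against 3.01, 4.28, 4.71 and 6.50 CPM (log2 fold change -2.12 ± 0.22 (SE), adjusted p 0.000586). In both, all homozygous libraries were far below the heterozygous ones, replicate 5 least so. Scg2, a granin, fell by 2.84, Chgb by 1.82, the prohormone-processing enzyme gene Cpe by 1.43 and cholecystokinin, Cck, by 1.86 on the log2 scale. The calls of the incretin gene Gip, which fell by 2.02, and the secretin gene Sct, which fell by 1.41, were lost with Y-linked transcripts as a covariate.

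Of 18 tested tuft cell genes 13 fell and none rose (median -1.56). Avil, which encodes the actin-binding protein advillin, had 42.5, 39.6, 27.6, 20.7 and 23.7 CPM against 3.11, 2.35, 2.63 and 7.02 CPM (log2 fold change -3.01 ± 0.39 (SE), adjusted p 0.00137). Replicate 5 was the highest homozygous library and still well under the heterozygous ones. The taste-channel gene Trpm5 fell by 3.23 and the kinase gene Dclk1 by 2.35, both with calls lost with the covariate for Y-linked transcripts. Summed levels of the stem, Paneth, defensin and enteroendocrine lists were each higher in homozygous replicate 5 than in the other 3 homozygous libraries and still below every heterozygous library. In the stem list Prom1, 327, 357, 275, 238 and 271 CPM against 73.9, 87.7, 74.2 and 78.7 CPM, and Rgmb, a BMP co-receptor, 177, 227, 196, 149 and 190.4 CPM against 41.9, 36.4, 53.7 and 60.2 CPM, were fully separated (log2 fold change -1.90 ± 0.13 (SE), adjusted p 0.000114 and log2 fold change -1.97 ± 0.18 (SE), adjusted p 0.000266).

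**Figure D3:**
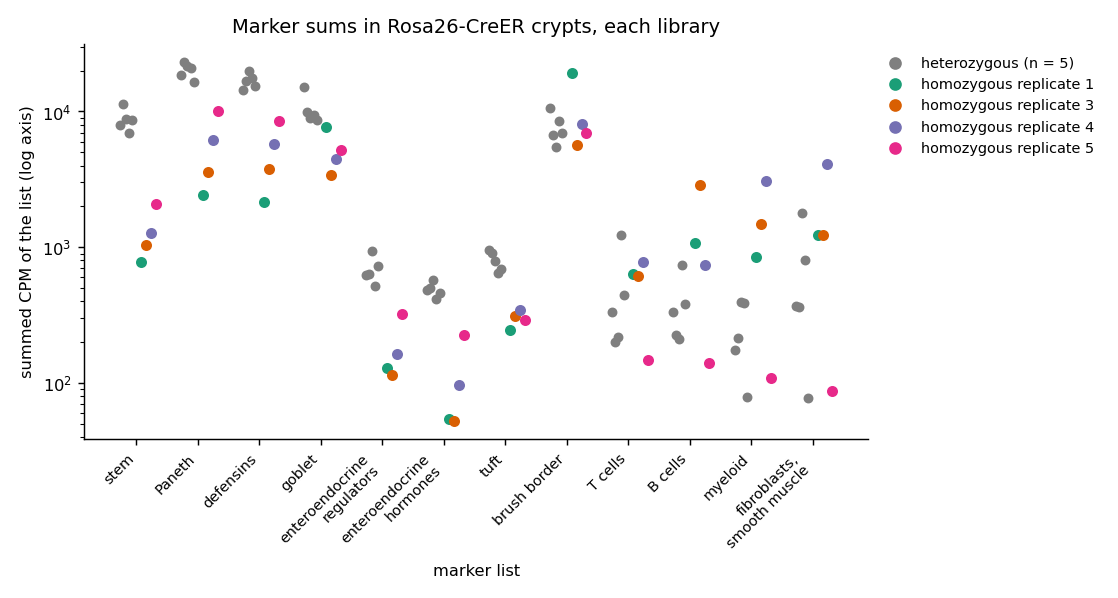
Summed CPM of each marker list in each crypt library, on a log axis. Grey points are heterozygous and coloured points homozygous libraries, with 1 colour per replicate. Stem, Paneth, defensin, goblet, enteroendocrine and tuft sums are lower in all 4 homozygous libraries, brush border sums overlap, and immune and stromal sums range widely with homozygous replicate 5 low.

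Absorptive cell genes had few calls. Of 21 brush border genes 2 were higher and 2 lower (median -0.02), of 19 genes of lipid absorption 1 was higher (median 0.50), and of 24 villus solute carriers 1 was higher (median 0.28). Sucrase-isomaltase, Sis, had 635, 369, 318, 599.6 and 714 CPM against 1409, 529.8, 545 and 471 CPM, and homozygous replicate 1 alone was above the heterozygous range (log2 fold change 0.49 ± 0.38 (SE), adjusted p 0.385). Of the alternatives run, the covariate for Y-linked transcripts alone gave a call of Sis, and there the genotype effect rests on homozygous replicate 1. The peptidase gene Enpep rose by 1.57 on the log2 scale, with its call lost without heterozygous replicate 2 or 5. Usp2, a deubiquitinase gene, fell by 1.29. The higher counts of these 3 lists were 0 to 2 with any 1 library left out. Without homozygous replicate 1, 5 brush border genes, 3 lipid absorption genes and 6 carriers were lower. Cd36, which encodes a fatty acid transporter also made by macrophages and endothelium, had 9.26, 18.4, 22.9, 28.00 and 13.2 CPM against 63.8, 113, 312 and 16.9 CPM, with replicate 5 inside the heterozygous range (log2 fold change 2.79 ± 0.70 (SE), adjusted p 0.0242). Its call was lost without heterozygous replicate 1, 2, 3 or 5 or homozygous replicate 4. It was also lost with no filter beyond 1 read or with the covariate for Y-linked transcripts. The macrophage sums given above had the same order across the homozygous libraries. Their part was not tested.

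Among 26 intestinal transcription factor genes 6 fell and 2 rose. Foxa3 had 46.9, 49.1, 47.9, 35.1 and 37.9 CPM against 18.2, 15.5, 12.4 and 15.8 CPM and Foxa2 18.1, 24.6, 21.8, 15.9 and 19.8 CPM against 5.65, 6.55, 7.79 and 11.5 CPM (log2 fold change -1.49 ± 0.15 (SE), adjusted p 0.000434 and log2 fold change -1.34 ± 0.22 (SE), adjusted p 0.00397). Both forkhead factors take part in secretory cell programmes, and both groups were separated. The homeobox gene Cdx1 fell by 0.63, while Isx, a homeobox factor that restrains vitamin A uptake, rose by 0.69. Of retinoid genes 3 of 21 fell and 2 rose. Bco1, which encodes the enzyme that cleaves beta-carotene and is an ISX target, fell from 2.33 ± 0.377 to 0.282 ± 0.140 CPM (log2 fold change -3.02 ± 0.39 (SE), adjusted p 0.00122). Rbp7, a retinol-binding protein gene, fell by 2.18 and Lrat, which esterifies retinol, by 2.16.

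The Notch pathway split between ligands. Jag2 had 4.36, 3.30, 3.54, 3.34 and 2.90 CPM in heterozygous and 15.6, 15.5, 17.2 and 29.1 CPM in homozygous crypts, with replicate 5 highest (log2 fold change 2.47 ± 0.22 (SE), adjusted p 0.000271). Dll4 went the other way, with 34.9, 30.5, 33.8, 25.05 and 24.8 CPM against 8.95, 6.08, 9.64 and 8.42 CPM (log2 fold change -1.85 ± 0.17 (SE), adjusted p 0.000305). Dll1, the second delta ligand of secretory cells, fell by 1.12, the receptor gene Notch1 by 1.33 and Hes6 by 0.87 on the log2 scale, while the coactivator gene Maml1 rose by 0.44. In all 7 of 21 members fell and 4 rose, the latter a count of 8 without homozygous replicate 5. Among 27 members and targets of the Wnt pathway 10 fell and 1 rose (median -0.48). Ephb3, a receptor that positions cells in the crypt, had 93.2, 99.1, 106, 68.3 and 80.5 CPM against 19.9, 27.5, 25.7 and 34.5 CPM (log2 fold change -1.73 ± 0.18 (SE), adjusted p 0.000584). The target gene Sp5 fell by 1.33, whereas Axin2 had 204, 247, 245, 178 and 213 CPM against 105, 103, 147 and 205 CPM and was not called (log2 fold change -0.63 ± 0.21 (SE), adjusted p 0.0629). Homozygous replicate 5 reached the heterozygous level of Axin2 and the other 3 did not, and the gene was called without replicate 5 and by DESeq2's Wald test.

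In the EGF receptor family 6 of 19 genes rose and 2 fell, and 10 rose without homozygous replicate 5. The ligand gene Ereg, epiregulin, had 1.92, 0.770, 1.17, 1.97 and 1.34 CPM against 5.88, 4.97, 3.53 and 3.67 CPM (log2 fold change 1.65 ± 0.31 (SE), adjusted p 0.0071). Lrig1, which restrains the receptors and marks stem cells, fell by 0.79. The receptor gene Egfr itself was not called (log2 fold change -0.52, adjusted p 0.121), though it was without homozygous replicate 4. Of 18 Hippo pathway members and YAP targets 4 rose and 3 fell, and 2 to 7 rose when single libraries were left out. The 2 extremes came without any of heterozygous replicates 2, 3 and 5 or homozygous replicate 1, and without homozygous replicate 5. Ajuba, a LIM protein that binds LATS kinases, had 5.26, 6.72, 8.47, 3.38 and 4.01 CPM against 15.2, 16.7, 15.6 and 12.8 CPM (log2 fold change 1.44 ± 0.26 (SE), adjusted p 0.00573). Tead2 fell by 1.60, and Yap1 was not called (log2 fold change 0.13, adjusted p 0.465). In the BMP pathway 2 of 20 genes fell and 1 rose. The ligand gene Bmp7 had 24.3, 29.5, 26.9, 18.5 and 22.3 CPM against 5.07, 4.67, 7.67 and 14.8 CPM (log2 fold change -1.59 ± 0.34 (SE), adjusted p 0.0122).

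**Figure D4:**
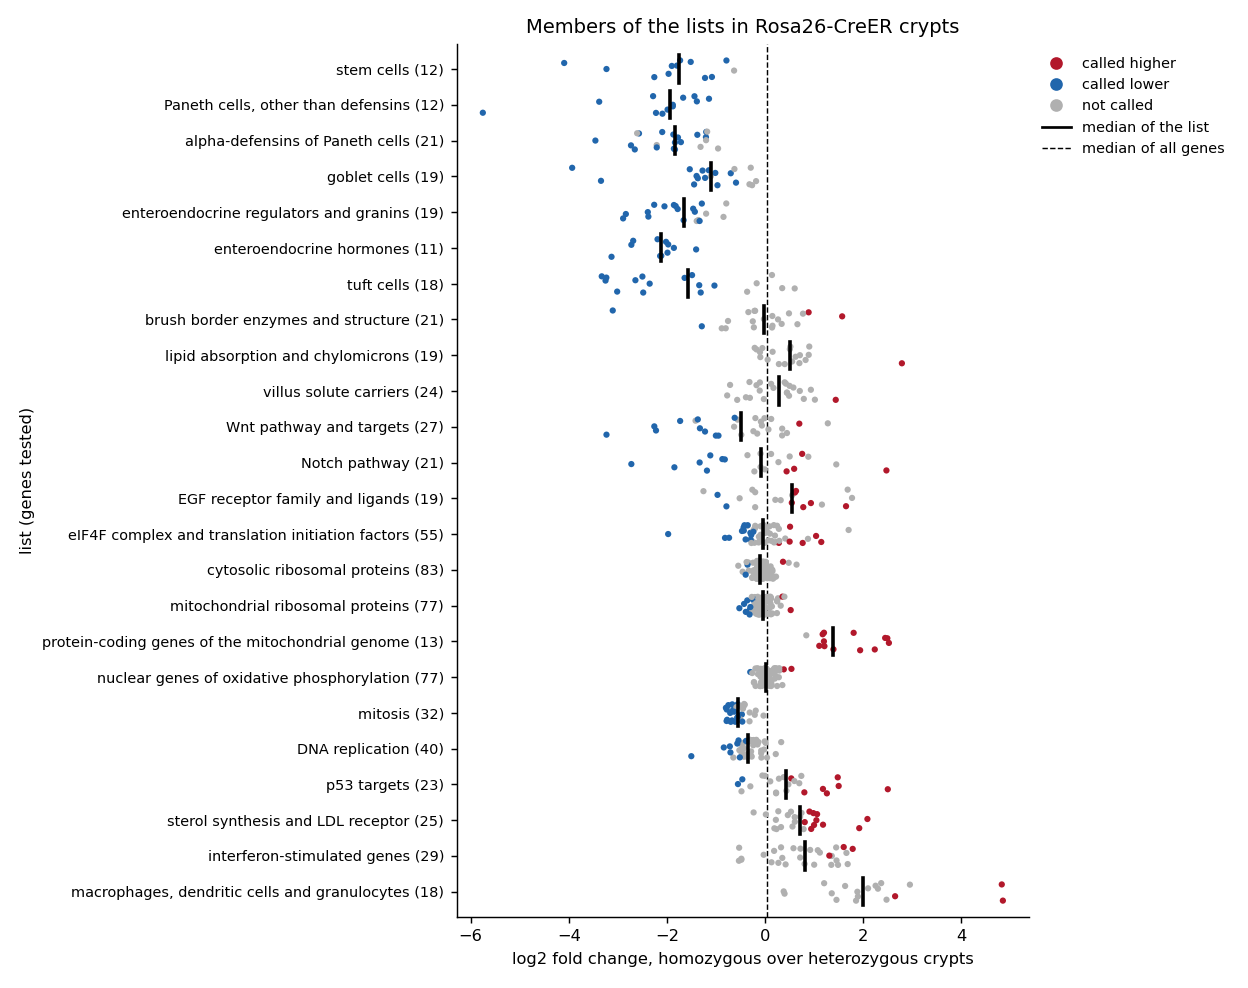
Log2 fold change, homozygous over heterozygous crypts, of every tested member of 24 lists. Red points are called higher, blue points called lower, grey points not called, and black bars mark medians, while the dashed line is the median of all tested genes, 0.04. Medians of stem and secretory lists lie to the left of the line and those of the mitochondrial genome, sterol, lipid absorption and p53 target lists to the right.

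The other scaffold genes of the Eif4g2 family were not lower. Eif4g1, the main scaffold of cap-dependent initiation, had 687, 677, 580.5, 544 and 628 CPM against 643, 570.3, 602 and 684 CPM (log2 fold change 0.00 ± 0.10 (SE), adjusted p 0.987). The values overlapped throughout. Eif4g3, the third family member, had 72.2, 58.2, 62.6, 62.6 and 56.5 CPM against 111, 111, 113 and 90.3 CPM, every homozygous library above every heterozygous one (log2 fold change 0.77 ± 0.10 (SE), adjusted p 0.00122). The helicase gene Eif4a2 had 123, 128, 151, 149 and 155 CPM against 294, 398, 236 and 323 CPM (log2 fold change 1.14 ± 0.15 (SE), adjusted p 0.00127). Eif1, which guards start-codon choice, had 286, 307, 288, 259 and 276 CPM against 645, 584, 563 and 536 CPM (log2 fold change 1.04 ± 0.09 (SE), adjusted p 0.000249). All 3 rose in every homozygous library, replicate 5 included. Eif2a (log2 fold change -0.73) and the poly(A)-binding protein gene Pabpc1 (-0.82) fell. Of 55 initiation factor genes 13 fell and 6 rose, with Eif4g2 itself among the 13. The lower count was 8, 7, 7, 8 and 6 without heterozygous replicates 2, 3 and 5 and homozygous replicates 1 and 4, and the higher count 10 without homozygous replicate 5.

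Genes of cytosolic ribosomal proteins and of ribosome biogenesis moved little. Of 83 cytosolic ribosomal protein genes 2 fell and 1 rose (median -0.11), and none of 30 ribosome biogenesis genes was called by edgeR, against 1 or 0 in each fit with 1 library left out. Of these 30, 2 had an unadjusted p under 0.05, and DESeq2's Wald test called 0. Among 77 mitochondrial ribosomal protein genes 10 fell, led by Mrpl9 (log2 fold change -0.52), and 2 rose, led by Mrpl20 (0.52). The lower count was 1 without homozygous replicate 4 and 6, 3, 3, 5, 4 and 3 without heterozygous replicates 1 to 5 and homozygous replicate 1. Of 20 aminoacyl-tRNA synthetase genes 4 fell and 1 rose (median -0.12), and called or not, 16 of the 20 had a log2 fold change below 0 and 4 above. Kars, the lysine enzyme, had 199.8, 202, 199, 197 and 204 CPM against 128, 134, 134 and 135 CPM (log2 fold change -0.59 ± 0.06 (SE), adjusted p 0.000586). Qars and Wars fell by 0.57 and 0.85. These falls were small, and the homozygous libraries differed little from each other.

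Stress response lists had calls in both directions. Of 24 genes of the integrated stress response 3 rose and 5 fell. The risers numbered 1 without heterozygous replicate 1, 2, 4 or 5, and the fallers 2 or 3 without any 1 library but heterozygous replicate 4 and homozygous replicate 5. Atf4, its central factor, was not called (log2 fold change 0.20, adjusted p 0.183), while Atf5, a related factor, rose from 15.3 ± 2.29 to 29.1 ± 5.30 CPM (log2 fold change 0.93 ± 0.15 (SE), adjusted p 0.00392). The proline synthesis gene Pycr1, a textbook ATF4 target, fell by 1.57. Of 26 genes of the unfolded protein response 3 fell and none rose. Ern2, the IRE1 form of mucus-secreting cells, had 51.5, 37.2, 44.4, 36.99 and 42.2 CPM against 14.4, 16.7, 15.05 and 21.1 CPM (log2 fold change -1.34 ± 0.15 (SE), adjusted p 0.000622). Herpud1, of ER-associated degradation, fell by 0.62. The chaperone gene Hspa5 was not called (log2 fold change 0.27, adjusted p 0.178).

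Transcripts of the mitochondrial genome took 25.2%, 20.4%, 16.2% and 13.7% of counts in homozygous replicates 1, 3, 4 and 5 and 9.01%, 12.4%, 6.24%, 8.77% and 6.36% of counts in heterozygous replicates 1 to 5. The groups did not overlap (means 18.9% ± 5.02 (SD, n = 4) and 8.55% ± 2.50 (SD, n = 5), exact two-sided permutation p 0.0159, the smallest this design can give). Of 13 protein-coding mitochondrial genes 12 were higher (median 1.39). mt-Co3, a subunit of cytochrome oxidase, had 539, 1011, 572, 475 and 369 CPM against 3599, 3849, 3593 and 1899 CPM (log2 fold change 2.45 ± 0.32 (SE), adjusted p 0.00133). The count fell to 6 without heterozygous replicate 3 or 5. With all 4 Rosa26-CreER tissue groups in 1 fit it was 4. Nuclear genes of oxidative phosphorylation did not follow: of 77, 2 were higher and 1 lower (median 0.03).

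Of 32 mitosis genes 19 fell and none rose (median -0.56), and of 40 DNA replication genes 8 fell (median -0.34). Plk1, a mitotic kinase gene, had 120.0, 112, 107, 97.6 and 112 CPM against 55.4, 67.4, 64.9 and 67.3 CPM (log2 fold change -0.78 ± 0.09 (SE), adjusted p 0.000773). Tk1, thymidine kinase, had 75.2, 86.5, 78.3, 78.4 and 85.6 CPM against 16.2, 33.5, 30.1 and 34.1 CPM (log2 fold change -1.50 ± 0.20 (SE), adjusted p 0.00144). In both, the groups were separated and homozygous replicate 1 was lowest. Tyms, thymidylate synthase, fell by 0.72, and the nucleotide precursor enzyme gene Prps2 by 0.90. Single libraries moved these counts: 7 mitosis and 2 replication genes were lower without homozygous replicate 4. In that fit lower calls over all genes also dropped, from 1831 to 1241. The replication count was 15 without homozygous replicate 5 and 5, 5 and 4 without heterozygous replicates 2, 3 and 5, and the mitosis count 12, 11 and 11 without heterozygous replicates 1, 2 and 5.

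Among 23 targets of p53, 7 were higher and 2 lower (median 0.44), and 7 to 10 were higher when any 1 library was left out. Ccng1, cyclin G1, had 96.7, 105, 90.3, 103 and 95.6 CPM in heterozygous and 244, 204, 240.1 and 249.7 CPM in homozygous crypts (log2 fold change 1.26 ± 0.09 (SE), adjusted p 0.000104). Zmat3, an RNA-binding protein gene, had 20.1, 23.9, 19.2, 16.6 and 17.8 CPM against 53.5, 45.3, 56.4 and 65.7 CPM (log2 fold change 1.50 ± 0.13 (SE), adjusted p 0.000266). The death receptor gene Tnfrsf10b had 9.65, 9.76, 10.1, 8.26 and 9.18 CPM against 23.8, 21.4, 19.7 and 20.3 CPM (log2 fold change 1.18 ± 0.11 (SE), adjusted p 0.000266). All 4 homozygous libraries were high in each of these 3 genes. Mdm2, which encodes the ubiquitin ligase of p53, rose by 0.53 on the log2 scale, while the arrest gene Cdkn1a was not called (log2 fold change 0.47, adjusted p 0.246) other than with the covariate for Y-linked transcripts. Of 24 apoptosis regulators 5 were higher and 2 lower, but the higher count was 1 or 2 without any 1 of the 5 heterozygous libraries or homozygous replicates 3 and 4.

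Messages of the histone acetyltransferases Ep300 and Crebbp, whose proteins are the targets of the inhibitor used in another arm of the series, were higher. Ep300 had 137, 145, 123, 110.2 and 119 CPM against 271, 185, 243 and 236 CPM (log2 fold change 0.88 ± 0.13 (SE), adjusted p 0.00199). Crebbp had 74.6, 77.6, 59.3, 58.4 and 59.5 CPM against 141, 97.5, 149.6 and 136 CPM (log2 fold change 0.99 ± 0.14 (SE), adjusted p 0.0022). Neither pair of groups overlapped, as was so for 2673 of all 3198 called genes. In the list of 36 acetyl- and methyltransferases and partners 3 rose, 6 without homozygous replicate 3, and 2 fell. The third riser was the X-linked demethylase gene Kdm6a, which escapes X inactivation. It had 37.8 CPM in homozygous replicate 1, the library with Y-linked transcripts, 29.5 to 37.7 CPM in heterozygous crypts and 54.1, 58.04 and 58.8 CPM in the other homozygous libraries. Its call was lost without homozygous replicate 4 and with the covariate for Y-linked transcripts, the replicate block or all 4 tissue groups in 1 fit. Kdm5c, a further escape gene, had 204, 185, 215 and 210.1 CPM in homozygous against 131, 124, 107, 97.8 and 118 CPM in heterozygous crypts, so that replicate 1 was as high as the others (log2 fold change 0.82 ± 0.10 (SE), adjusted p 0.00101). Of 25 deacetylases and demethylases 1 rose, Kdm5c, and 1 fell, Hdac11 (log2 fold change -1.33).

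Of 25 genes of sterol synthesis and uptake 10 rose and none fell (median 0.71). Idi1, an isomerase gene of the isoprenoid steps, had 60.5, 52.3, 41.4, 56.3 and 55.3 CPM against 116, 115, 83.8 and 83.7 CPM (log2 fold change 0.90 ± 0.14 (SE), adjusted p 0.00319). All 4 homozygous libraries exceeded every heterozygous one, replicates 1 and 3 most. Nsdhl rose by 0.81 on the log2 scale. The call of Idi1 was lost with all 4 Rosa26-CreER tissue groups in 1 fit. The count was 17 without homozygous replicate 5 and 5, 4 and 4 without heterozygous replicates 2, 3 and 5.

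Fatty acid desaturases moved in opposite directions. Fads1, the delta-5 desaturase that makes arachidonic acid, had 174, 195, 159.8, 145 and 153 CPM in heterozygous and 23.5, 32.03, 37.4 and 22.4 CPM in homozygous crypts (log2 fold change -2.52 ± 0.18 (SE), adjusted p 0.000114). Fads2, the delta-6 desaturase gene beside it, had 271, 299, 255, 228 and 256 CPM against 107, 98.9, 109 and 120.2 CPM (log2 fold change -1.27 ± 0.10 (SE), adjusted p 0.000162). Acss2, which makes acetyl-CoA from acetate in the cytosol and nucleus, had 83.3, 93.1, 94.2, 81.5 and 87.02 CPM against 40.95, 35.3, 31.2 and 36.4 CPM (log2 fold change -1.29 ± 0.09 (SE), adjusted p 0.000118). Each was low in all 4 homozygous libraries. Scd2, a delta-9 desaturase gene, rose from 321 ± 148 to 969 ± 411 CPM (log2 fold change 1.60 ± 0.36 (SE), adjusted p 0.0152). Within the list 4 of 21 rose and 4 fell, the former a count of 2 without heterozygous replicate 2 or 3 or homozygous replicate 3 and 1 without heterozygous replicate 5 or homozygous replicate 1. In the list of fatty acid oxidation and PPARA targets 2 of 22 rose and 3 fell, the latter a count of 0 without homozygous replicate 4, 6 without homozygous replicate 5 and 1 without any 1 heterozygous library or homozygous replicate 3. Acadl, long-chain acyl-CoA dehydrogenase, had 76.8, 70.9, 81.03, 95.3 and 77.2 CPM against 282, 280.5, 186 and 219 CPM (log2 fold change 1.59 ± 0.14 (SE), adjusted p 0.000266). The carnitine carrier gene Slc25a20 rose by 0.86.

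Among 18 genes of citrulline, arginine and ornithine metabolism 5 fell and 3 rose, the latter a count of 1 without any 1 heterozygous library or homozygous replicate 3. Cps1, carbamoyl phosphate synthetase, an abundant mitochondrial enzyme of the crypt, had 2839, 3544, 2865, 2539.9 and 3099 CPM against 885, 660.0, 1078 and 1703 CPM (log2 fold change -1.46 ± 0.26 (SE), adjusted p 0.00505). All homozygous libraries were low, replicate 5 least so. The next enzyme gene, Otc, fell by 0.91, with its call lost with Y-linked transcripts as a covariate. Arg1, which macrophages also make, had 12.7, 22.6, 61.2, 35.1 and 3.87 CPM against 139, 342, 848 and 8.44 CPM, replicate 5 within the heterozygous range (log2 fold change 3.63 ± 1.11 (SE), adjusted p 0.048). Its call was lost without any 1 library other than homozygous replicate 5. In the glycolysis list 4 of 22 genes rose and 3 fell. The risers included Pgam1 (log2 fold change 0.73) and Aldoa (0.91), while Pck1, the entry enzyme of gluconeogenesis, fell by 1.75. Risers numbered 9 without homozygous replicate 5 and 2 without heterozygous replicate 3 or 4 or homozygous replicate 4, which left 1 faller. Of 36 cytochrome P450 and conjugating enzyme genes 4 rose and 7 fell. Gsta4 rose from 14.3 ± 1.87 to 51.6 ± 20.96 CPM (log2 fold change 1.85), and Cyp2c65 fell by 1.59. The risers numbered 2 without heterozygous replicate 1, 2, 3 or 5 or homozygous replicate 1, and the fallers 3 or 4 without any 1 heterozygous library and 2 without homozygous replicate 4.

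Markers of cells outside the epithelium were measured beside these results. None of 18 T cell and intraepithelial lymphocyte genes and none of 13 B cell and plasma cell genes was called by edgeR, and without adjustment 0 and 7 had a p under 0.05, while DESeq2's Wald test called 0 and 3 (medians 0.32 and 1.81). Of 18 macrophage, dendritic cell and granulocyte genes 3 were higher, S100a8, S100a9 and Mrc1, and of 14 fibroblast and smooth muscle genes 1 was, Pdgfrb. The calls of Mrc1 and Pdgfrb were lost in 8 and 6 of 9 fits with 1 library left out. Without homozygous replicate 5 these 4 counts were 1, 9, 15 and 3. Csf1r, the defining receptor of macrophages, had 15.1, 17.9, 25.1, 20.7 and 3.98 CPM against 56.5, 49.4, 133 and 4.68 CPM, and no marker of these 4 lists was at 0 in a whole group. The collagen gene Col1a1 had 36.04, 36.5, 179, 95.2 and 3.61 CPM against 129.6, 78.5, 388 and 5.19 CPM. In both genes homozygous replicate 5 lay among the lowest heterozygous values, and the order of the libraries within each genotype was the same. The other homozygous libraries lay above every heterozygous one for Csf1r. For Col1a1 heterozygous replicate 3 exceeded homozygous replicates 1 and 3. Of 5 red blood cell genes 2 were lower, the haemoglobin genes Hba-a1 and Hbb-bt. Hba-a1 had 18.6, 28.9, 6.10, 70.1 and 5.20 CPM against 6.03, 1.80, 3.26 and 0.345 CPM, and its call was lost in 7 of 9 fits with 1 library left out, that of Hbb-bt in 5.

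Inflammatory genes differed in how they followed those markers. Il18, an epithelial cytokine gene, had 10.3, 5.99, 6.33, 9.80 and 8.22 CPM against 63.96, 41.02, 27.1 and 27.9 CPM, high in all 4 homozygous libraries (log2 fold change 2.30 ± 0.29 (SE), adjusted p 0.00122). Il1b, a cytokine gene of myeloid cells, had 0.835, 1.33, 0.452, 2.44 and 0.512 CPM against 8.61, 24.3, 30.4 and 2.22 CPM, with replicate 5 inside the heterozygous range (log2 fold change 3.89 ± 0.79 (SE), adjusted p 0.00952). Ccl28, an epithelial chemokine that attracts IgA plasma cells, had 93.4, 99.6, 98.8, 89.3 and 96.9 CPM against 33.1, 28.8, 35.8 and 48.1 CPM and fell in all (log2 fold change -1.39 ± 0.14 (SE), adjusted p 0.000455). In the list of 26 epithelial cytokines and inflammatory genes 3 rose and 4 fell, with 10 risers without homozygous replicate 5 and 2 fallers without heterozygous replicate 1, 2, 3 or 5. Of 29 interferon-stimulated genes 3 rose (median 0.80), 15 without homozygous replicate 5 and 1 without any other library but homozygous replicate 4. No gene of MHC class I and antigen processing (15 tested) or class II (9 tested) was called by edgeR, with 0 and 2 under an unadjusted p of 0.05 and 0 and 2 called by DESeq2's Wald test. Il33, an alarmin counted among fetal-like genes, had 6.10, 4.24, 12.2, 7.11 and 3.89 CPM against 67.3, 44.9, 35.8 and 18.98 CPM, and F3, tissue factor, 2.11, 1.11, 2.41, 2.01 and 1.59 CPM against 7.37, 11.4, 5.32 and 5.46 CPM. Both rose in every homozygous library, replicate 5 included (log2 fold change 2.64 ± 0.43 (SE), adjusted p 0.00362 and log2 fold change 2.00 ± 0.31 (SE), adjusted p 0.00278).

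Among S100 proteins and annexins 8 of 19 rose and 2 fell. Anxa13, an annexin of the epithelial apical membrane, had 99.8, 88.1, 89.99, 126 and 116 CPM against 294, 216, 173 and 225 CPM (log2 fold change 1.12 ± 0.17 (SE), adjusted p 0.00233). S100a16 and S100a1 rose by 0.84 and 0.81. Without homozygous replicate 5 the count was 14, and it was 5 without heterozygous replicate 2 or 5 or homozygous replicate 3. Of 17 claudin and tight junction genes 4 fell and 1 rose. Tjp3 fell from 329 ± 9.75 to 192 ± 25.96 CPM and Cldn2, which forms the cation channel of crypts, from 243 ± 11.4 to 129 ± 32.3 CPM, whereas Tjp1 rose by 0.59. The integrin gene Itga2 fell by 1.09. Of 26 lysosome and autophagy genes 7 rose and 2 fell, with Map1lc3a up by 0.95, the regulator Tfeb up by 0.50 and Wipi1 down by 0.99. The riser count was 4 without heterozygous replicate 1, 2, 4 or 5 or homozygous replicate 4. Of 17 clock genes 2 rose and 1 fell: Cry1 rose by 1.32 and the activator Arntl fell by 0.65 on the log2 scale. Of 19 immediate-early genes 4 rose and 1 fell, with 13 risers without homozygous replicate 5 and 1 to 3 without any other library. Few genes of the heat shock list (0 rose and 1 fell of 15), the NRF2 list (1 and 2 of 22), the Reg family (0 and 1 of 6) and the keratins (0 and 1 of 7) were called. The calls of Cdx1, Usp2, Lrat, Eda2r, Pck1, Cyp2c65, Il1b and Arntl were lost with the covariate for Y-linked transcripts. So were those of Arg1, Mrc1, Pdgfrb, Hba-a1 and Hbb-bt. Calls of Cldn2, Pck1 and Pdgfrb were lost with all 4 Rosa26-CreER tissue groups in 1 fit.

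The effect of genotype was then compared between crypts and villi of Rosa26-CreER mice, as an interaction over 19 libraries, 18 of them in pairs from the same 9 mice. It differed for 1904 of 16495 genes (11.5%), 802 with a positive and 1102 with a negative difference, crypts minus villi. With the animal as a block the count was 772, 266 positive and 506 negative, and without homozygous crypt replicate 1 the balance turned, with 668 positive and 602 negative. The count was 3068 without homozygous crypt replicate 5, 1167, 1162, 1234 and 1079 without heterozygous crypt replicates 2 and 5 and homozygous crypt replicates 3 and 4, and 1252 without heterozygous villus replicate 5. Within villi alone 4504 of 13579 genes (33.2%) were called. Goblet and enteroendocrine lists held no gene with a called difference (0 of 19, 0 of 19 and 0 of 11, with 1 enteroendocrine regulator lower with the animal as a block). Without adjustment 3, 0 and 2 had a p under 0.05 in edgeR's interaction, and DESeq2's Wald test called 0, 0 and 1. Their medians were -1.19, -1.80 and -2.26 in villi, with 12 of 18, 9 of 15 and 9 of 10 lower. Stem cell genes did differ, 9 of 12 with a negative difference and 6 with the animal as a block. In the mitochondrial genome 7 of 13 genes had a positive difference, and none was called by edgeR in villi, where 5 had an unadjusted p under 0.05 (median -1.38). With the animal as a block 0 of 13 had one. By DESeq2's Wald test or without heterozygous villus replicate 1 or 2 all 13 had one, without homozygous crypt replicate 5 it was 11, and without any other 1 library 3 to 6.

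Some genes that fell in crypts did not do so in villi. Fads1 and Acss2 had log2 fold changes of -0.41 and -0.12 in villi (adjusted p 0.517 and 0.634). Their differences were -2.24 and -1.27 (edgeR interaction, adjusted p 0.0121 and 0.0024) and were also called with the animal as a block. Clca3b, of the calcium-activated chloride channel regulator family, fell in crypts from 2294 ± 374 to 597 ± 104 CPM and rose in villi from 21.00 ± 15.2 to 109 ± 95.7 CPM, scaled within villi (difference -4.45, adjusted p 0.00634, and 0.0577 with the animal as a block). In villi 17 of 25 sterol genes were higher and 1 lower. Adgrd1, an adhesion receptor gene, had the largest positive difference among genes of sufficient level, 4.87, with 0.79 in crypts and -4.18 in villi (adjusted p 0.00868, and 0.0747 with the animal as a block). Among 20 tRNA synthetase genes 11 had a negative difference and none a positive one, a count of 4 with the animal as a block and 4 to 7 without heterozygous crypt replicate 1, 2 or 5, homozygous crypt replicate 1, 3 or 4, heterozygous villus replicate 2 or 5 or homozygous villus replicate 2 or 3.

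**Figure D5:**
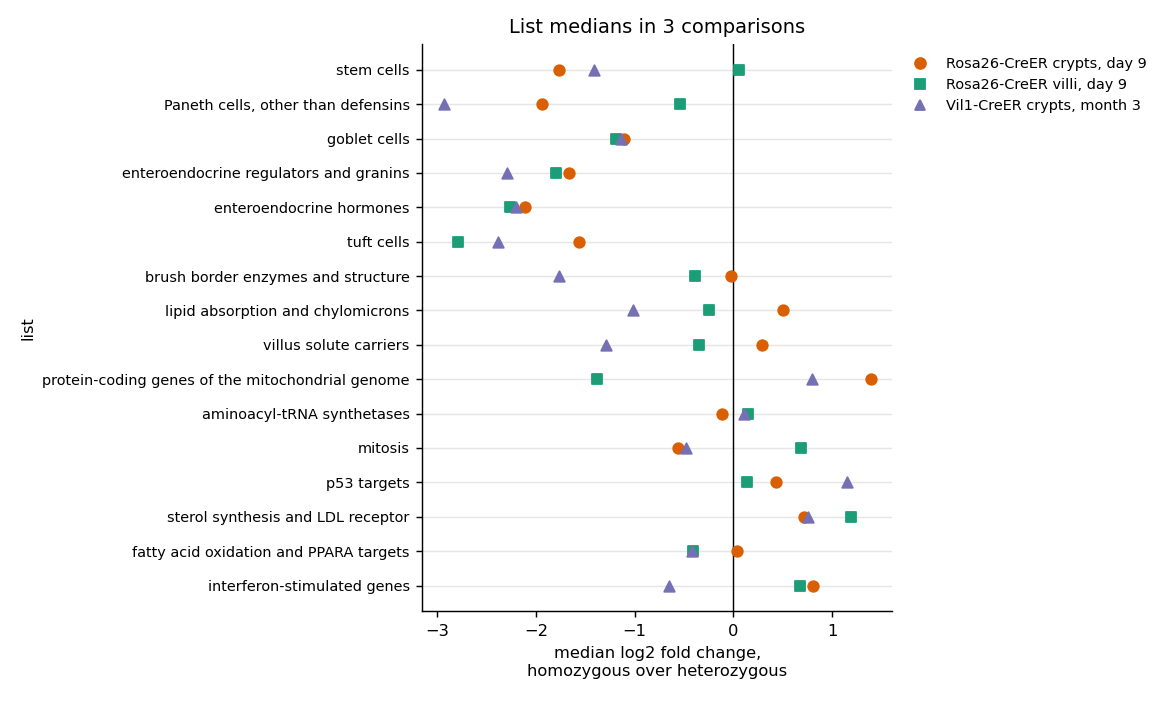
Median log2 fold change, homozygous over heterozygous, of the tested members of 16 lists in Rosa26-CreER crypts (orange circles), Rosa26-CreER villi (green squares) and Vil1-CreER crypts (purple triangles). Secretory lists are below 0 in crypts of both drivers, absorptive lists are lower in Vil1-CreER than in Rosa26-CreER crypts, and sterol genes are above 0 in all 3.

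Against Vil1-CreER crypts at month 3, 321 of 18013 genes (1.78%) differed in the effect of genotype, 150 with a positive and 171 with a negative difference, Rosa26-CreER minus Vil1-CreER. With DESeq2's size factors the split was 140 and 74, and positive differences outnumbered negative ones in 13 of 19 alternatives. Driver, time after tamoxifen and deposited table differ together between these experiments and cannot be told apart. In Vil1-CreER crypts alone 4960 of 16954 genes (29.3%) were called. The count of differences was 759 and 591 without Rosa26-CreER homozygous replicates 5 and 3, 39 and 81 without Vil1-CreER homozygous replicates 1 and 2, and 123 to 208 without any other library but Vil1-CreER heterozygous replicate 2, which gave 261.

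Targets of p53 rose further in Vil1-CreER crypts. There 16 of 24 were higher (median 1.14), and 8 of 24 had a negative difference while none had a positive one, with 4 negative without Vil1-CreER homozygous replicate 1. Phlda3 rose by 6.70 on the log2 scale in Vil1-CreER crypts, from 0.205 ± 0.112 to 22.1 ± 2.99 CPM, and by 2.50 in Rosa26-CreER crypts, from 2.68 ± 1.39 to 15.2 ± 3.17 CPM (difference -4.26, adjusted p 0.00344). Eda2r, a receptor of the TNF receptor family, rose by 4.33 and 1.48 (difference -2.91, adjusted p 0.00344), and Zmat3 by 3.00 and 1.50 (difference -1.57, adjusted p 0.00229). Eif4g2 itself fell by 0.99 in Vil1-CreER and 1.98 in Rosa26-CreER crypts (difference -1.06, adjusted p 0.00229).

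Of the 150 genes with a positive difference, 144 were lower in homozygous Vil1-CreER crypts and 47 in homozygous Rosa26-CreER crypts. Of the 171 with a negative difference, 115 were higher in the former and 21 in the latter. Esrrg, an orphan nuclear receptor gene, fell by 7.26 there and by 2.12 in Rosa26-CreER crypts (difference 5.07, adjusted p 0.0055). The glutamate transporter gene Slc1a3 had log2 fold changes of -6.01 and -1.65 (difference 4.31, adjusted p 0.00987). In Rosa26-CreER crypts the call of Slc1a3 was lost without heterozygous replicate 2, 3 or 5 or homozygous replicate 1, 3 or 4. It was also lost with no filter beyond 1 read. Bche, butyrylcholinesterase, had 114 ± 25.9 CPM in heterozygous and 3.48 ± 2.74 CPM in homozygous Vil1-CreER crypts, against 86.6 ± 15.2 and 103 ± 72.7 CPM in Rosa26-CreER crypts (difference 5.22, adjusted p 0.0116). Il18 had a log2 fold change of 0.06 in Vil1-CreER crypts, not called (adjusted p 0.858), against 2.30 (difference 2.17, adjusted p 0.0185, and 0.0621 without Vil1-CreER homozygous replicate 2). Of the absorptive lists, 15 of 20 brush border genes, 9 of 19 lipid absorption genes and 15 of 24 carriers were lower in Vil1-CreER crypts, with a called difference for 2 of 21, 1 of 19 and 1 of 24. By DESeq2's Wald test 8, 9 and 10 had one, all positive. Without Rosa26-CreER homozygous replicate 3 the counts were 7, 6 and 7, and without Vil1-CreER homozygous replicate 1 or 2 they were 0.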

How the data were processed

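Poly(A)-selected RNA-seq libraries were deposited as raw read counts per gene, which the authors aligned with HISAT2 2.0.5 to GRCm38 (mm10), per the submitters' processing notes. The counting program and its strand setting are not given in the sources used here, so reads of overlapping and antisense genes may be assigned to either. Groups came from the sample labels. The series holds no crypt library of homozygous replicate 2, only its villi. Each library came from 1 mouse, and p-values of comparisons within 1 tissue measure the spread between these mice. The interaction with villi treated crypts and villi of the same mouse as independent, except with the animal as a block.

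Counts were tested with edgeR 4.0.16 (limma 3.58.1, R 4.3.3): filterByExpr by group, TMM scaling, robust glmQLFit, glmQLFTest and Benjamini-Hochberg adjustment over all tested genes, with calls at an adjusted p under 0.05. Log2 fold changes are homozygous over heterozygous, with SE from the quasi-likelihood fit. Differences between experiments were interaction terms of the same model, fitted over the libraries of both. Shares of mitochondrial counts were compared with an exact permutation test (scipy 1.17.1, pandas 2.3.3, Python 3.11.15). The fitting code was tested on simulated data.

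Alternatives were DESeq2 1.42.0 (size factors or the Wald test), no filter beyond 1 read, the replicate number, the series of animal numbers or presence of Y-linked transcripts in the model, mitochondrial genes left out of the scaling, all 4 Rosa26-CreER tissue groups in 1 fit, the animal as a block, an axis threshold of 2 in place of 1, and each library left out in turn. Crypts and villi of the same animals are paired by the animal numbers in the labels. Replicate numbers are not stated to pair animals.

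The comparison and the 63 gene lists were chosen with earlier results of these data known. Of the genes in these lists 4 were not matched in the deposited table. Named genes were Eif4g2, the 10 largest rises and falls of called genes (predicted genes aside) whose groups did not overlap and whose mean log2 CPM reached 3, and for each list its first 2 genes and the 3 called members with the smallest p in each direction. For each interaction they were the 5 largest called differences in each direction. The text gives a selection, a few genes are not reported here, and genes outside these rules were added after their values were seen.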

Additional observations from a re-analysis of the deposited data

Results flagged for a closer look

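Genotype effects differed between experiments by edgeR's interaction test. Against villi of the same experiment 1904 genes differed, and 772 with the animal as a block. Among those described above, the difference (crypts minus villi, log2 scale) was 4.87 for Adgrd1, -4.45 for Clca3b, -2.24 for Fads1 and -1.27 for Acss2. The differences of Adgrd1 and Clca3b were not called with the animal as a block. Against Vil1-CreER crypts 321 genes differed. The difference (Rosa26-CreER minus Vil1-CreER, log2 scale) was 5.22 for Bche, 5.07 for Esrrg, 4.31 for Slc1a3, 2.17 for Il18, -4.26 for Phlda3, -2.91 for Eda2r, -1.57 for Zmat3 and -1.06 for Eif4g2.

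Single libraries lay far from the rest of their group for 21 of 306 combinations of group and gene or list by Dixon's test, which chance alone flags in about 1 of 20. Homozygous replicate 5 was that library 7 times. It was highest in its group for Avil (7.02 CPM), Hdac11 (25.3 CPM), Jag2 (29.1 CPM), Pbld1 (2.19 CPM) and Rbp7 (5.24 CPM), and lowest for Eif4g3 (90.3 CPM) and mt-Co3 (1899 CPM). For Avil, Hdac11, Pbld1, Rbp7, Eif4g3 and mt-Co3 it thus lay nearest to the heterozygous libraries, and for Jag2 farthest from them. Homozygous replicate 1 was lowest for Eda2r (6.36 CPM), Phlda3 (10.4 CPM) and Kars (128 CPM) and highest for Sis (1409 CPM). Homozygous replicate 3 was highest for Cldn2 (177 CPM) and lowest for Usp2 (4.88 CPM).

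Of the heterozygous libraries, replicate 1 was highest for Muc2 (1152 CPM), Scd2 (577 CPM) and Xist (0.436 CPM), the last against 180.3 to 316 CPM in the 3 homozygous libraries without Y-linked transcripts, and lowest for Eif2a (91.1 CPM). Replicate 3 was highest for Adgrd1 (54.7 CPM), replicate 4 lowest for Hes6 (53.5 CPM), and replicate 5 lowest for Maml1 (32.8 CPM) and Mptx2 (564 CPM).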

How the results depend on the processing

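The 3198 calls in crypts became 1937 to 4732 with 1 library left out and stayed within 1.5 times the count in the other 8 alternatives. Replicate numbers were also tried as a block: 2240 genes were called. Residuals of the same-numbered libraries correlated at 0.285, 0.0366, 0.335 and 0.599 for replicates 1, 3, 4 and 5, and only replicates 1 and 5 correlated best with their own number, so the numbers were not taken to pair mice. Of 136 genes named above as called, 133 kept the call with this block (lost: Kdm6a, Mmp7 and Pdgfrb), 136 with DESeq2's size factors or Wald test, 112 with the covariate for Y-linked transcripts and 128 to 135 with 1 library left out. None of these 136 changed sign in an alternative. With the covariate for Y-linked transcripts the genotype effect rests on homozygous replicate 1 against the heterozygous libraries. Of 13 uncalled genes given above, 6 were called in some alternative and 5 changed sign in one. The balance of higher and lower calls turned without homozygous replicate 5, with 2513 higher and 2219 lower.

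The count of differences from villi, 1904, was 1258 with no filter beyond 1 read, 2884 by DESeq2's Wald test, 772 with the animal as a block, where crypts and villi are paired by mouse, and 1079 to 3068 with 1 library left out, with more positive than negative differences in 1 of 23 alternatives. That from Vil1-CreER crypts, 321, was 135 with no filter, 850 by DESeq2's Wald test and 39 to 759 with 1 library left out, with more positive than negative differences in 13 of 19. Without the filter 28138 and 29389 genes were tested. The cause of these shifts was not tested. With a log2 difference beyond 2 as the axis threshold, 466 crypt-high genes were lower and 96 villus-high genes higher. The difference in mitochondrial share ranged from 8.23 to 12.1 percentage points with 1 library left out. Of the sizes simulated here, the fit missed more of the smaller changes, so an uncalled gene may still differ.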
